A study of Mus musculus with 8 samples.

Results

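Integrins and laminins are the cell's matrix receptors and part of the matrix they hold. The members described here are the 41 genes, of 30266 in the deposited table, whose symbol begins with Itga, with Itgb and a digit, or with Lama, Lamb or Lamc and a digit. They comprise 27 integrin subunits, 11 laminin chains and 3 genes that the name pattern also takes in but that encode no subunit: Itgb1bp1, Itgb1bp2 and Itgb3bp. Whole liver was taken from male Mdr2-/- mice, 8 weeks old, 4 h after recombinant FGF21 (rFGF21, 1.0 mg/kg, 4 libraries) or after PBS vehicle (4 libraries). The gene Mdr2, now called Abcb4, encodes the canalicular phospholipid transporter, whose loss gives bile duct injury and periductal fibrosis. Both groups carry that genotype label and no other genotype was analysed here, so the comparison reads the hormone within cholestatic liver and says nothing of the genotype itself.

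An integrin is a pair of one alpha and one beta subunit in the cell membrane. The pair decides the ligand: Itgb1 joins alpha subunits that bind collagen, laminin or fibronectin, Itgav pairs with several beta subunits that bind vitronectin, fibronectin and the latent form of TGF-beta, and Itgb2 joins the alpha subunits of leukocytes that bind ICAM proteins. Laminins are trimers of an alpha, a beta and a gamma chain that form basement membranes. In normal liver, laminin lies around bile ducts and vessels and is sparse along the sinusoids, and bile duct cells carry Itga6 with Itgb4 and, when injured, Itgb6.

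Libraries held 62756328 to 73313449 reads and are named by group and by the number in their column. Hepatocyte markers summed to 55793 to 70935 CPM (TMM-normalized counts scaled to library depth) in rFGF21 and 59328 to 77704 in PBS libraries, while photoreceptor markers, read because the extraction text names retina, summed to at most 0.173 and 0.298 CPM. Abcb4 stood at 372 to 441 CPM in rFGF21 and 337 to 424 CPM in PBS libraries; which part of the gene is disrupted is not stated, so these reads do not check the genotype. The first principal component of all tested genes (25.7% of the variance) separated the groups. On it, rFGF21 libraries lay from -51.5 (library 5) to -13.8 and PBS libraries from 9.12 to 65.0 (library 4). Library 5 of the rFGF21 group and PBS library 4 are thus the pair farthest apart there. Smaller differences and fewer calls without that pair were therefore likely from the start. For members whose value in every library is given, results are also shown without that pair where they moved by over 1.5 times or lost a call. Class medians are given without it too. No single gene outside the members was followed in that way. In whole tissue, fewer cells of a type and less RNA per cell cannot be told apart.

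The members spanned a wide range of levels, read per length as CPM per kilobase of annotated exon (CPM per kb). Itgb1, the shared beta subunit of most matrix receptors, was the most abundant at 60.6 ± 1.9 CPM per kb in rFGF21 and 52.9 ± 2.1 CPM per kb in PBS libraries (SD, n = 4 each). Itgb5, a vitronectin-receptor subunit that pairs with Itgav, followed at 42.7 ± 3.2 CPM per kb in rFGF21 and 42.04 ± 6.5 CPM per kb in PBS libraries. No other member averaged above 7.76 CPM per kb in either group. Among integrin alpha subunits the highest by the mean over all 8 libraries were Itga5, the fibronectin receptor subunit, at 7.40 ± 0.98 CPM per kb in rFGF21 and 5.75 ± 0.80 CPM per kb in PBS libraries, and Itga3, a laminin receptor of epithelia, at 7.59 ± 2.0 CPM per kb in rFGF21 and 4.55 ± 0.63 CPM per kb in PBS libraries. The leading alpha, beta and gamma chains of laminin were Lama5, Lamb2 and Lamc1, at 5.47, 4.36 and 5.86 CPM per kb in rFGF21 and 4.13, 3.43 and 4.80 CPM per kb in PBS libraries. The lowest subunits by the mean over all 8 libraries were Itgad, a beta-2 partner of tissue macrophages, at 0.0867 CPM per kb in rFGF21 and 0.132 CPM per kb in PBS libraries, and Itgb6 at 0.227 CPM per kb in rFGF21 and 0.125 CPM per kb in PBS libraries. The order of single genes depends on the exon length used, here the union of all exons annotated for a gene.

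**Figure D1:**
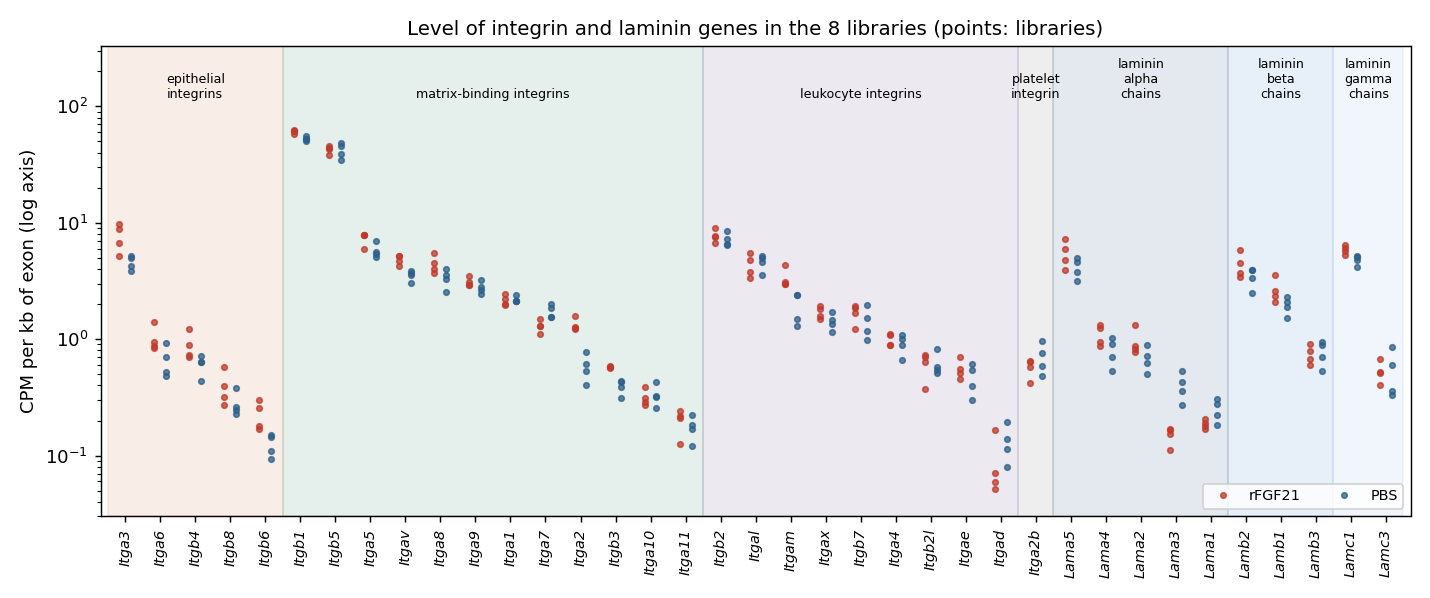
Level of integrin and laminin subunits in each library, as CPM per kb of exon on a log axis, grouped by class (points: libraries; rFGF21 left of PBS for each gene). Itgb1 and Itgb5 stand above all other members, and the 4 rFGF21 points of Lama3 lie below its 4 PBS points.

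Few members changed singly. Among those tested, 27 had log2 fold changes above 0 (67.5%, beside 50.4% of all genes) and 13 below 0. Of the 41 members, 40 passed the filter on low counts; Itgb1bp2, which encodes melusin, a muscle protein that binds the Itgb1 tail, had at most 11 reads in any library and was not tested. Itga2 and Itgav rose and Lama3 fell at an adjusted p under 0.05 (Benjamini-Hochberg, from edgeR's quasi-likelihood fit of the whole table), which is 7.5% of the members tested, beside 2.82% of the 18315 genes tested. At an unadjusted p under 0.05, 15 members were higher (37.5%, beside 8.92% of all genes) and 2 were lower (5.0%, beside 9.86%). The rFGF21 libraries all lay above the PBS libraries for 8 members (20%, beside 5.9% of all genes) and all below them for 2 (5.0%, beside 6.39%). The median log2 fold change was 0.25 over the members and 0.00338 over all genes tested. DESeq2 called 6 members, adding Itga3, Itgam and Itgb3, beside 8.73% of the 16314 genes it adjusted. Without rFGF21 library 5 and PBS library 4 together, edgeR called no member, and 10 had an unadjusted p under 0.05, against 17 with all libraries.

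**Figure D2:**
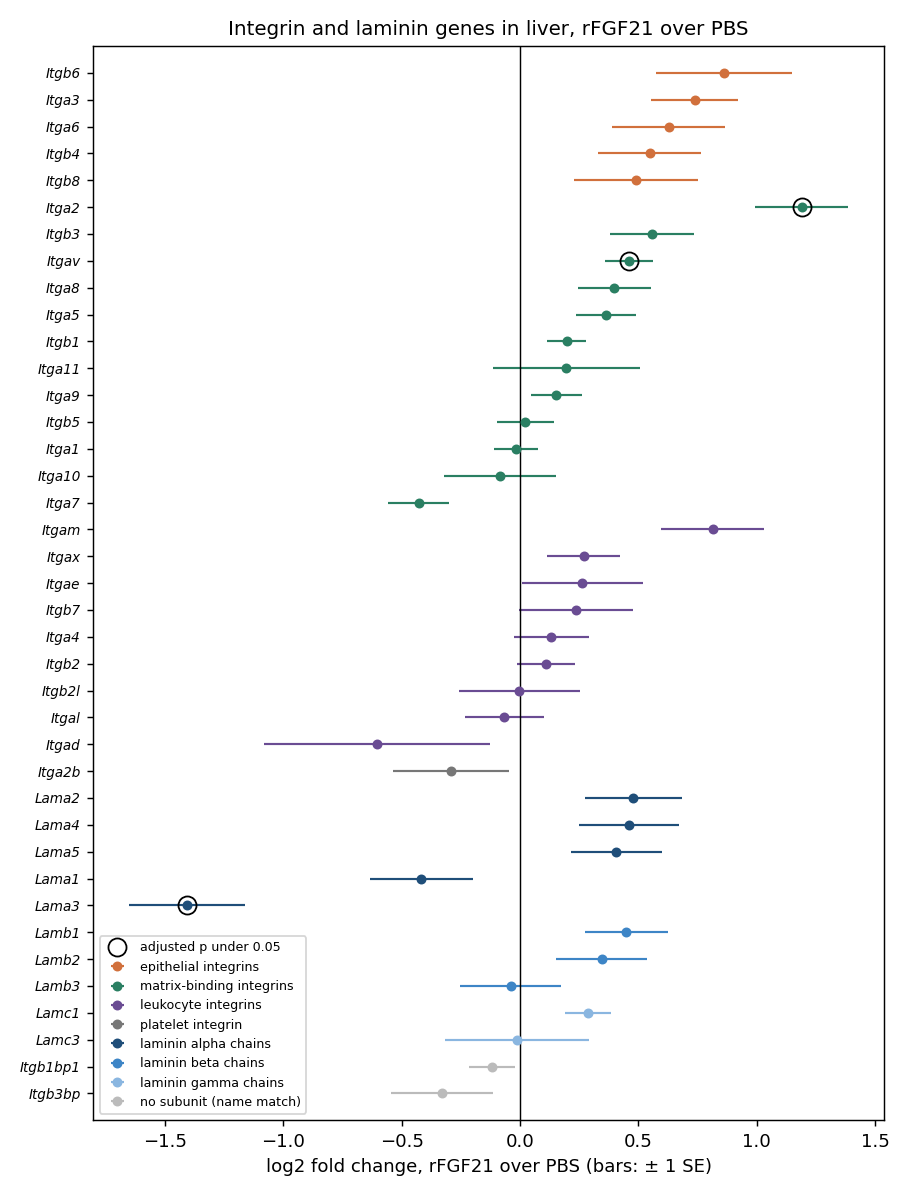
Log2 fold change, rFGF21 over PBS, of members tested (points, ± 1 SE), coloured by class, with circles around members at an adjusted p under 0.05. All 5 epithelial integrins lie right of 0, among leukocyte integrins Itgam (0.81) and Itgad (-0.60, with a wide bar) lie farthest from it, and Lama3 stands apart from the other laminin chains at -1.40.

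In what follows, errors of log2 fold changes are SE and errors of CPM are SD over 4 libraries. Among the 12 matrix-binding integrins, 2 rose and none fell (16.7% called, beside 2.82% of all genes). At an unadjusted p under 0.05, 6 were higher (50%, beside 8.92% of all genes) and 1 lower (8.33%, beside 9.86%). The median log2 fold change was 0.20. Itga2 (ENSMUSG00000015533, GRCm38 chr13:114833081-114932100, minus strand) encodes the alpha subunit of a collagen receptor found on epithelial cells and platelets. It was read at 8.86, 9.03, 8.68 and 11.3 CPM in rFGF21 libraries 1, 2, 3 and 5, against 3.80, 5.49, 4.40 and 2.90 CPM in PBS libraries 1, 2, 4 and 5. The lowest rFGF21 library was well above the highest PBS library. Itga2 rose 2.28-fold (log2 fold change 1.19 ± 0.20 SE, edgeR adjusted p = 0.0140), and the call held whichever library was left out (edgeR adjusted p 0.0156 to 0.0468). Without rFGF21 library 5 and PBS library 4 the log2 fold change was 1.13 and the edgeR adjusted p = 0.0561.

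Itgav (ENSMUSG00000027087, chr2:83724397-83806916, plus strand) encodes the alpha subunit of the vitronectin and latent TGF-beta receptors. Its levels were 56.1, 46.1, 50.5 and 56.2 CPM in rFGF21 libraries, against 39.9, 41.2, 32.5 and 38.1 CPM in PBS libraries, again without overlap. It rose 1.38-fold (log2 fold change 0.46 ± 0.10 SE, edgeR adjusted p = 0.0421). The call was lost without any single library other than rFGF21 library 2 (edgeR adjusted p 0.0536 to 0.126), at log2 fold changes between 0.40 and 0.50, and without rFGF21 library 5 and PBS library 4 together it stood at 0.36 (edgeR adjusted p = 0.111).

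The promoter windows of both integrins that rose, and of Itga3, the integrin nearest to the threshold, are shown because ERK and JNK act on transcription through ETS and AP-1 factors. Each runs from 250 bases before the RefSeq start to 50 bases after it (GRCm38.p6), 5′ to 3′ on the gene's strand, and capitals mark a match to the ETS core CGGAAG or the AP-1 site TGANTCA on either strand:
Itga2 promoter, chr13:114932051-114932350, minus strand: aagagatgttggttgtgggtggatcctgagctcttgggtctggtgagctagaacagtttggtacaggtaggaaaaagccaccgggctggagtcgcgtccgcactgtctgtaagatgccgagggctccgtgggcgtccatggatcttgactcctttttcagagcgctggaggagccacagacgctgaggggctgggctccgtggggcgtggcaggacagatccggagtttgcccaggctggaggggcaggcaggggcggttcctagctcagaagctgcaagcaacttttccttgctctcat
Itgav promoter, chr2:83724147-83724446, plus strand: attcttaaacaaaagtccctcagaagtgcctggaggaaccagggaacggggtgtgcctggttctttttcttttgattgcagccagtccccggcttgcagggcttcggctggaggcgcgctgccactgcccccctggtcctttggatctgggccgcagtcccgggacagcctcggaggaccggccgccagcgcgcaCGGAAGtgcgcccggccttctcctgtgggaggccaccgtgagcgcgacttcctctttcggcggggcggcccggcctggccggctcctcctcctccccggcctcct
Itga3 promoter, chr11:95076665-95076964, minus strand: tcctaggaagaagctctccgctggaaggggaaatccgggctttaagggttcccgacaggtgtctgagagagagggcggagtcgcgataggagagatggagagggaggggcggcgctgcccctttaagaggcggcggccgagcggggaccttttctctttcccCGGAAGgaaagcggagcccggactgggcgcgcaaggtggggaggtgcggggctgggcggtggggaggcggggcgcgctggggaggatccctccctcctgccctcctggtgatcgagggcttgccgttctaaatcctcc
Itgav held an ETS core beginning 55 bases before the start and Itga3 one beginning 88 bases before it, and the Itga2 window held neither motif. Windows were found for 26 members, the one nearest the gene's start being taken where RefSeq lists several. For Itga9, Itgb3bp and Lamb3 it lay far inside the gene as the deposited table places it. That of Itga9, for instance, was chr9:118711442-118711741, against a gene start at 118606690. Matches counted for Itga9 and Itgb3bp are therefore not at that gene start. Lama3 was not among the 26. An ETS core was in 5 of the 26 (19.2%), with Itgb1bp1 and Itgb3bp, which are no subunits, among the 5. Of the 32851 windows of all genes, in which a gene may have several, 16.9% held one. An AP-1 site was in 2 of the 26 (7.69%, those of Itga9 and Itgax), beside 7.81% of those windows. No match overlapped one of the other motif in the windows shown, and these letters are no evidence of binding.

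Among the beta partners of these alpha subunits, Itgb1 had 250, 254, 248 and 237 CPM in rFGF21 libraries, against 214, 228, 207 and 215 CPM in PBS libraries, a log2 fold change of 0.20 ± 0.08 (SE) that did not pass (edgeR adjusted p = 0.227). Itgb3, which pairs with Itgav on vessels and with Itga2b on platelets, had 3.37, 3.34, 3.49 and 3.40 CPM in rFGF21 libraries, against 2.51, 1.86, 2.27 and 2.59 CPM in PBS libraries. Both beta genes were therefore higher in every rFGF21 library than in any PBS library without an adjusted p under 0.05; that of Itgb3 was 0.121 (log2 fold change 0.56 ± 0.18 SE), while DESeq2 called it (adjusted p = 0.0420). Itgb5 showed overlapping groups, at 152 ± 11 CPM in rFGF21 and 149 ± 23 CPM in PBS libraries.

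Itga5, of the fibronectin receptor, was read at 38.6, 29.3, 39.1 and 39.1 CPM in rFGF21 libraries, against 26.5, 27.8, 34.1 and 25.1 CPM in PBS libraries. Library 2 of the rFGF21 group lay within the PBS range, and the log2 fold change of 0.36 ± 0.13 (SE) did not pass (edgeR adjusted p = 0.154). Itga8, a nephronectin and fibronectin receptor subunit of stellate cells, had 33.3, 29.6, 27.1 and 40.4 CPM in rFGF21 libraries, against 26.1, 29.5, 18.9 and 24.4 CPM in PBS libraries (0.40 ± 0.16, edgeR adjusted p = 0.198; log2 fold change 0.17 without rFGF21 library 5 and PBS library 4). The only matrix-binding member lower at an unadjusted p under 0.05 was Itga7, a laminin receptor best known from muscle. It had 10.4, 11.95, 10.4 and 9.04 CPM in rFGF21 libraries, against 12.6, 15.1, 12.4 and 16.1 CPM in PBS libraries. All 4 rFGF21 values lay below the PBS values, and the log2 fold change of -0.43 ± 0.13 (SE) did not pass (edgeR adjusted p = 0.110). Exons of Itga7 share 9 bases with Mettl7b on the opposite strand, a gene with up to 41424 reads in a library. The collagen receptor Itga1, with 40.2 ± 3.8 CPM in rFGF21 and 40.7 ± 2.4 CPM in PBS libraries, had overlapping groups, unlike Itga2. Itga9, Itga10 and Itga11 also overlapped, with log2 fold changes from -0.08 to 0.20.

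**Figure D3:**
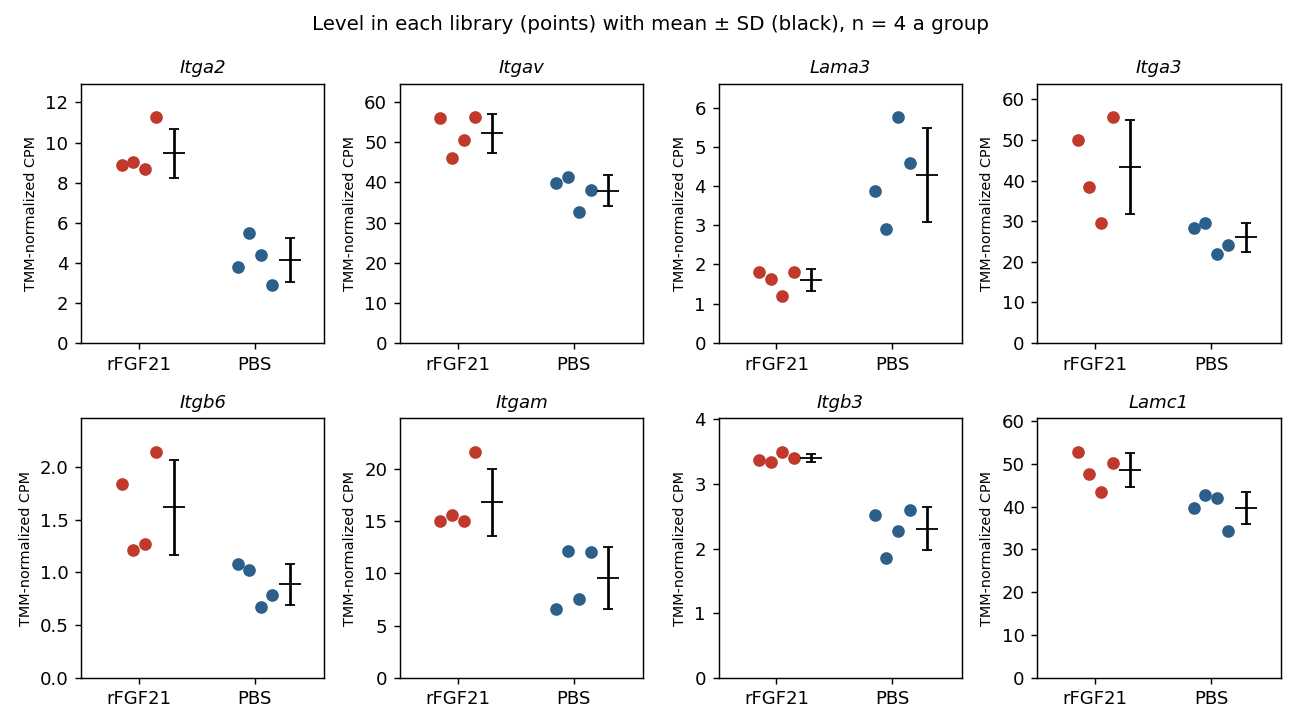
TMM-normalized CPM of 8 members in each library (points: libraries; black: mean ± SD, n = 4 a group; rFGF21 left of PBS; axes start at 0). In all 8 the groups do not overlap; Itga2, Itgav and Lama3 passed the test, and the rFGF21 points of Itga3 and Itgb6 are spread more widely than the PBS points.

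All 5 epithelial integrins had higher means after rFGF21, with a median log2 fold change of 0.63, yet none passed edgeR's adjusted test. At an unadjusted p under 0.05, 4 were higher (80%, beside 8.92% of all genes), and DESeq2 called Itga3. Itga3 was read at 50.02, 38.3, 29.55 and 55.5 CPM in rFGF21 libraries, against 28.4, 29.53, 21.9 and 24.1 CPM in PBS libraries. Its groups only just failed to meet, rFGF21 library 3 lying beside PBS library 2. The log2 fold change was 0.74 ± 0.18 (SE, edgeR adjusted p = 0.0613; DESeq2 adjusted p = 0.00269), and the edgeR call was gained without rFGF21 library 3 (adjusted p = 0.0309); without rFGF21 library 5 and PBS library 4 the log2 fold change was 0.52 (edgeR adjusted p = 0.205). Itgb6, the inducible partner of Itgav on injured bile ducts, stood at 1.84, 1.21, 1.27 and 2.14 CPM in rFGF21 libraries, against 1.08, 1.02, 0.667 and 0.786 CPM in PBS libraries, at 39 to 162 reads a library (0.86 ± 0.29, edgeR adjusted p = 0.138), or 0.58 without that pair of libraries.

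Itga6 and Itgb4 together form the laminin receptor of hemidesmosomes. Itga6 had 12.7, 7.87, 7.54 and 8.51 CPM in rFGF21 libraries, against 6.30, 8.38, 4.33 and 4.72 CPM in PBS libraries. Itgb4 had 6.23, 4.97, 5.11 and 8.53 CPM in rFGF21 libraries, against 3.08, 4.43, 4.45 and 5.04 CPM in PBS libraries. In both genes the groups overlapped in part, with log2 fold changes of 0.63 ± 0.24 and 0.55 ± 0.22 (edgeR adjusted p = 0.187 and 0.208). Without rFGF21 library 5 alone that of Itgb4 was 0.36, and without rFGF21 library 1 that of Itga6 was 0.43. Itgb8, which holds latent TGF-beta with Itgav, was 0.49 ± 0.26 higher on the log2 scale (edgeR adjusted p = 0.347). The 8 cholangiocyte markers moved alongside: all 8 had log2 fold changes above 0 (100%, beside 50.4% of all genes), with a median of 0.64. At an unadjusted p under 0.05, 6 were higher (75%, beside 8.92% of all genes), and none was called by edgeR and 4 by DESeq2. Their summed level was 248 to 395 CPM in rFGF21 and 174 to 280 CPM in PBS libraries, and none was at 0. Their part in the epithelial integrin levels was not tested.

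The leukocyte integrins gave a different picture from the epithelial ones, by counts alone and with no test of that difference. Of the 9, 6 had log2 fold changes above 0 (66.7%, beside 50.4% of all genes). None passed edgeR's adjusted test, and 1 was higher at an unadjusted p under 0.05 (11.1%, near the 8.92% of all genes). DESeq2 called that same gene, Itgam, and the median log2 fold change was 0.13. Itgam, the alpha subunit of the complement receptor of neutrophils, monocytes and macrophages, was read at 15.0, 15.6, 15.1 and 21.6 CPM in rFGF21 libraries, against 6.56, 12.14, 7.53 and 12.11 CPM in PBS libraries. The groups did not overlap, and the log2 fold change was 0.81 ± 0.22 (SE, edgeR adjusted p = 0.0748; DESeq2 adjusted p = 0.00525), or 0.57 without rFGF21 library 5 and PBS library 4. Of 5024 exon bases annotated for Itgam, 3450 are shared with Gm49368 on the same strand, so its count depends on how shared reads were assigned, which is not stated. Its beta partner Itgb2, which all leukocytes carry, had 20.3, 27.7, 23.6 and 23.1 CPM in rFGF21 libraries, against 22.0, 19.5, 20.2 and 26.1 CPM in PBS libraries. These ranges overlapped almost wholly (0.11 ± 0.12, edgeR adjusted p = 0.689).

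Itgal, the ICAM receptor of lymphocytes, averaged 28.7 ± 6.5 CPM in rFGF21 and 30.0 ± 4.7 CPM in PBS libraries, and Itgax, found on dendritic cells and macrophages, 8.20 ± 1.0 and 6.81 ± 1.1 CPM. Itga4 and Itgb7, which together home lymphocytes to the gut, were at 13.9 ± 1.7 and 4.63 ± 0.90 CPM in rFGF21 and at 12.7 ± 2.5 and 3.92 ± 1.2 CPM in PBS libraries. Groups overlapped in each of these, and likewise in Itgae, Itgad and Itgb2l, which had at most 3.54 CPM in any library. Myeloid markers differed by cell type: 10 of 10 neutrophil markers and 5 of 5 monocyte markers had log2 fold changes above 0, as did 50.4% of all genes. The medians were 0.79 and 0.70. In each list 3 were higher at an unadjusted p under 0.05 (30% and 60%, beside 8.92% of all genes). None was called by edgeR, and 0 and 1 by DESeq2. Macrophage and Kupffer markers had 4 of 10 above 0 (40%, beside 50.4% of all genes) and a median of -0.37. At an unadjusted p under 0.05, 1 was lower (10%, near the 9.86% of all genes), and none was called by edgeR or DESeq2. Neutrophil markers summed to 17.8 to 38.8 CPM in rFGF21 and 13.8 to 23.1 CPM in PBS libraries, monocyte markers to 61.3 to 87.5 and 41.8 to 55.3 CPM, and macrophage markers to 675 to 1068 and 810 to 1227 CPM, with no marker at 0 in every library. Their part in the level of Itgam was not tested. Itga2b, the platelet subunit, had 3.56, 3.18, 3.46 and 2.29 CPM in rFGF21 libraries, against 5.30, 2.61, 3.23 and 4.12 CPM in PBS libraries, with overlap (-0.29 ± 0.24, edgeR adjusted p = 0.576).

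Of the 11 laminin chains, 7 had log2 fold changes above 0 (63.6%, beside 50.4% of all genes) and 4 below 0. Only Lama3 passed edgeR's adjusted test. Lama3 (ENSMUSG00000024421, chr18:12333819-12583013, plus strand) encodes the alpha chain of the epithelial anchoring laminin and is known to give a long and a short transcript, which a count per gene does not separate. It was read at 1.81, 1.64, 1.205 and 1.80 CPM in rFGF21 libraries, against 3.88, 2.89, 5.75 and 4.58 CPM in PBS libraries, or 88 to 136 and 184 to 336 reads. Every rFGF21 library lay below every PBS library. Lama3 fell to 1.61 ± 0.28 CPM in rFGF21 libraries, against 4.27 ± 1.2 CPM in PBS libraries (log2 fold change -1.40 ± 0.25 SE, edgeR adjusted p = 0.0178). The call was lost without rFGF21 library 1 (edgeR adjusted p = 0.0533), and without rFGF21 library 5 and PBS library 4 together (0.0561), at log2 fold changes of -1.47 and -1.29.

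Lamb3, the beta chain that assembles with Lama3, showed no such difference. It overlapped fully, at 4.93 ± 0.93 CPM in rFGF21 and 5.06 ± 1.2 CPM in PBS libraries (log2 fold change -0.04 ± 0.21, edgeR adjusted p = 0.945).

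In the broad basement membrane chains, Lama5, the main alpha chain of duct and vessel membranes, had 67.3, 54.8, 44.8 and 82.5 CPM in rFGF21 libraries, against 52.2, 57.3, 42.7 and 35.9 CPM in PBS libraries (0.41 ± 0.19, edgeR adjusted p = 0.289). Its partner Lamb1 had 25.8, 23.2, 20.8 and 35.6 CPM in rFGF21 libraries, against 20.7, 22.8, 15.1 and 18.6 CPM in PBS libraries (0.45 ± 0.18, edgeR adjusted p = 0.199). Lamb2, an alternative beta chain, had 27.4, 22.3, 20.7 and 35.8 CPM in rFGF21 libraries, against 24.0, 24.1, 15.1 and 20.4 CPM in PBS libraries (0.35 ± 0.19, edgeR adjusted p = 0.367). The groups overlapped in these 3 chains, and rFGF21 library 5 was the highest library in each. Without that library and PBS library 4, the log2 fold changes were 0.20 for Lama5, 0.17 for Lamb1 and 0.04 for Lamb2; without rFGF21 library 5 alone they were 0.24, 0.27 and 0.17, and without PBS library 4 alone that of Lamb2 was 0.22. Lamc1, the gamma chain shared by most laminins, was tighter, at 52.7, 47.8, 43.3 and 50.2 CPM in rFGF21 libraries, against 39.6, 42.7, 42.0 and 34.4 CPM in PBS libraries. It did not overlap between the groups and did not pass (0.29 ± 0.10, edgeR adjusted p = 0.143).

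Lama2, an alpha chain of mesenchymal cells, had 14.2, 13.6, 12.8 and 21.6 CPM in rFGF21 libraries, against 10.2, 14.6, 8.18 and 11.6 CPM in PBS libraries (0.48 ± 0.21, edgeR adjusted p = 0.241). Its log2 fold change was 0.28 without rFGF21 library 5 and 0.16 without PBS library 4 as well. Lama4, of vessel walls, was 0.46 ± 0.21 higher and Lama1, an embryonic chain, 0.42 ± 0.22 lower on the log2 scale (edgeR adjusted p = 0.271 and 0.335), and Lamc3 overlapped fully. Over the 11 chains, 1 fell and none rose by edgeR or DESeq2 (9.09% called by edgeR, beside 2.82% of all genes). At an unadjusted p under 0.05, 4 were higher (36.4%, beside 8.92% of all genes) and 1 lower (9.09%, beside 9.86%). The median log2 fold change was 0.35. Stellate and fibroblast markers had 8 of 9 log2 fold changes above 0 (88.9%, beside 50.4% of all genes), with a median of 0.22. At an unadjusted p under 0.05, 3 were higher (33.3%, beside 8.92% of all genes), and none was called by edgeR and 1 by DESeq2. Their sums were 900 to 1393 CPM in rFGF21 and 716 to 1012 CPM in PBS libraries. Endothelial markers had 3 of 8 above 0 (37.5%, beside 50.4% of all genes), with a median of -0.16 and sums of 177 to 261 and 165 to 269 CPM. None had an unadjusted p under 0.05 or was called by edgeR or DESeq2. None of either list was at 0 in every library, and their part in the laminin levels was not tested.

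A pair of libraries stood at the ends for many members. Library 5 of the rFGF21 group was the highest of the 8 libraries for 17 of the 40 members tested (17.1% of all genes had their highest value there), and PBS library 4 was the lowest for 19 (22.1% of all genes). Epithelial integrins summed to 75.2, 55.9, 46.5 and 81.1 CPM in rFGF21 libraries 1, 2, 3 and 5, against 41.7, 46.1, 33.8 and 38.8 CPM in PBS libraries 1, 2, 4 and 5. Laminin chains summed to 226, 190.4, 170 and 266 CPM in rFGF21 libraries, against 180.4, 193, 147 and 153 CPM in PBS libraries. Both sums were highest in rFGF21 library 5 and lowest in PBS library 4, as were the cholangiocyte and stellate marker sums; the laminin sums overlapped between groups. Matrix-binding integrins summed to 587 to 626 CPM in rFGF21 and 495 to 579 CPM in PBS libraries, and leukocyte integrins to 84.6 to 112 and 82.4 to 104.6 CPM. Without rFGF21 library 5 and PBS library 4, the median log2 fold change was 0.52 for epithelial integrins, 0.15 for matrix-binding integrins, 0.10 for leukocyte integrins and 0.16 for laminins.

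**Figure D4:**
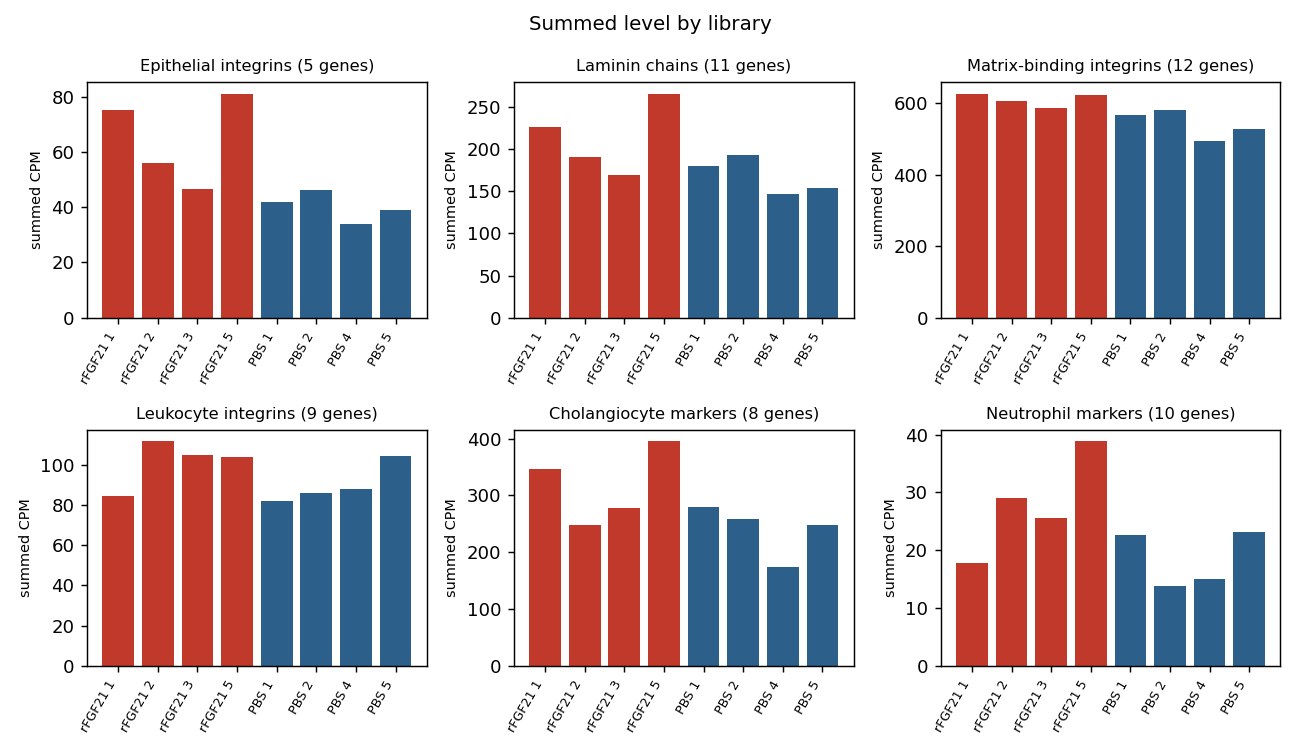
Summed TMM-normalized CPM by library for the epithelial, matrix-binding and leukocyte integrins, the laminin chains, and the cholangiocyte and neutrophil markers (bars: single libraries, rFGF21 in red left of PBS in blue; axes start at 0). Epithelial integrins, laminins and cholangiocyte markers are highest in rFGF21 library 5 and lowest in PBS library 4.

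The 2 tested name matches that are no subunits did not pass: Itgb1bp1, which binds the Itgb1 tail and keeps integrins inactive, averaged 14.3 ± 0.83 CPM in rFGF21 and 15.5 ± 1.2 CPM in PBS libraries, and Itgb3bp, a nuclear protein of the centromere, 3.18 ± 0.72 and 4.00 ± 0.80 CPM. Their exons overlap the more strongly read genes Cpsf3 and Pgm1 on the opposite strand, and the strand setting of the counting is not given.

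Genes that work with integrins and laminins were read from 4 lists, in fits of all 8 libraries. How their calls fare with libraries left out is not given here. The share called by edgeR was 25% of tested counter-receptors, 13.3% of basement membrane partners, 14.3% of matrix ligands and 10.3% of adaptors. Beside these, 2.82% of all genes tested were called by edgeR, and 8.73% of those adjusted were called by DESeq2. The lists were chosen with earlier results of these data known, so their shares are descriptive and no test of the lists. Among 8 tested cell-surface counter-receptors, 2 rose and none fell (none lower at an unadjusted p under 0.05; DESeq2 called 3 higher): Icam1, the ligand of Itgal and Itgam with Itgb2, by 0.68 ± 0.09, and Cdh1, E-cadherin, which binds Itgae, by 0.50 ± 0.09 (edgeR adjusted p = 0.00688 and 0.0194). Among 15 basement membrane partners, 2 rose and none fell (none lower at an unadjusted p under 0.05; DESeq2 called 3 higher). Nid1, nidogen, which links laminin to basement membrane collagen, reached 210 ± 16.3 CPM in rFGF21 libraries, against 122 ± 22.2 CPM in PBS libraries (0.79 ± 0.14, edgeR adjusted p = 0.0177), and Agrn, agrin, rose by 0.40 ± 0.09 (edgeR adjusted p = 0.0408). Of 14 tested matrix ligands, Thbs1, thrombospondin, and Fga, a fibrinogen chain, rose by 0.76 ± 0.17 and 0.67 ± 0.15 and none fell (edgeR adjusted p = 0.0442 and 0.0394; none lower at an unadjusted p under 0.05; DESeq2 called 5 higher).

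Among 29 cytoplasmic adaptors and activators, 2 rose and 1 fell. At an unadjusted p under 0.05, 6 were higher (20.7%, beside 8.92% of all genes) and 2 lower (6.9%, beside 9.86%). DESeq2 called 4 higher and 1 lower. Flna, filamin, which binds beta tails and actin, reached 153 ± 20.4 CPM in rFGF21 libraries, against 96.4 ± 13.8 CPM in PBS libraries (0.66 ± 0.13, edgeR adjusted p = 0.0276), and Lims1, the PINCH adaptor of integrin-linked kinase, rose by 0.41 ± 0.08 (edgeR adjusted p = 0.0299). Ptk2b, the kinase PYK2, fell by 0.35 ± 0.08 on the log2 scale (edgeR adjusted p = 0.0459). The talins, kindlins, vinculin and Ptk2, focal adhesion kinase, did not pass. The medians of the log2 fold changes were 0.36 for counter-receptors, 0.30 for basement membrane partners, 0.36 for matrix ligands and 0.19 for adaptors, beside 0.00338 over all genes tested.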

How the data were processed

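Gene-level read counts of 8 liver libraries, whole numbers per gene and not normalized, were taken from the authors' deposited table. Bowtie 0.12.2 and build mm8 are named in the submitters' processing notes, but the coordinates are of GRCm38: 36 of the 41 members have identical coordinates in GENCODE mouse release 21. The counting tool, strand setting and treatment of shared reads are not given in the sources. The table holds 5 count columns a group against 4 samples. Those 4 a group that have an FPKM column were used; 10 columns of per-sample values (2 of counts and all 8 of FPKM) were not used here. Levels between genes, planned on FPKM, were therefore computed as CPM per kb of GENCODE exon. Column numbers differ from the labels' sample numbers, so libraries were assigned to groups only. Nothing in the labels ties samples to separate animals, and the p-values cover only the spread among these samples, which may be technical. No pair of libraries agreed within sampling noise (lowest chi-square per degree of freedom 51.1).

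edgeR 4.0.16 in R 4.3.3 was run on all genes: filterByExpr, TMM scaling and the two-sided quasi-likelihood F test, without covariates, with Benjamini-Hochberg adjustment over the 18315 genes tested. A gene was called changed at an adjusted p under 0.05. The SE of a log2 fold change is its size over the root of F. CPM are TMM-normalized, with SD over 4 libraries. Alternatives used median-of-ratios scaling, DESeq2 1.42.0, no filter, a mean of at least 1 CPM, each library left out, and a replicate block; the fit without rFGF21 library 5 and PBS library 4 was chosen after seeing the data. Members and lists were chosen with earlier results of these data known. Every library's value is given for members with an unadjusted p under 0.05 and for the most abundant member of each class. Spp1 is in both the cholangiocyte markers and the matrix ligands, and Itga2b is in the platelet markers. B cell, T and NK cell, dendritic and platelet markers had no member called by edgeR, and DESeq2 called 1 T cell marker among them. At an unadjusted p under 0.05, 0, 1, 1 and 0 were higher (0%, 12.5%, 20% and 0%, beside 8.92% of all genes). One member is counted in the totals and is not reported here by itself.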

Additional observations from a re-analysis of the deposited data

Results flagged for a closer look

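In 6 of the 80 sets of 4 libraries (40 members, 2 groups), 1 library stood far from the other 3 of its group, by Dixon's test of the gap; chance gives this in about 1 set in 20. Library 5 of the rFGF21 group was the high one for Lama2 (21.6 CPM, others 12.8 to 14.2), Itgam (21.6 CPM, others 15.0 to 15.6) and Itga2 (11.3 CPM, others 8.68 to 9.03). Library 2 of the rFGF21 group was high for Itgad (0.748 CPM, others 0.233 to 0.317) and low for Itga5 (29.3 CPM, others 38.6 to 39.1). PBS library 2 was high for Itga1 (44.3 CPM, others 39.4 to 39.6). With rFGF21 library 5 left out, Itga2 stood at a log2 fold change of 1.10 (edgeR adjusted p = 0.0466) and Itgam at 0.67 (edgeR adjusted p = 0.198).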

How the results depend on the processing

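None of the 21 members followed changed direction in any of 15 other fits. They were followed for an unadjusted p under 0.05 in the main fit or as the most abundant of their class. The fits also share libraries, so steady directions were likely from the start. The 3 members called became 6 with DESeq2, 0 without rFGF21 library 5 and PBS library 4 together, and 1 to 3 with 1 library left out. Itga2 kept its call in 13 fits, Lama3 in 11 and Itgav in 4. The 516 genes changed became 1424 with DESeq2, 198 without a filter on low counts, 223 without both libraries, and 131 to 486 with 1 library left out. The fits of limma to log2 FPKM at either pseudocount were not run, since the FPKM columns were not used. With 1 library left out the class medians ran from 0.55 to 0.81 for epithelial, 0.18 to 0.28 for matrix-binding and 0.09 to 0.23 for leukocyte integrins, and from 0.24 to 0.45 for laminins. Column numbers 1, 2 and 5 occur in both groups. Same-numbered libraries did not deviate together over all genes (correlations 0.07, -0.04 and -0.10). Such correlations cannot show whether the libraries were paired, since a link that touches few genes would not appear in them. A replicate block over those 6 libraries called 12 genes and 0 members (10 members at an unadjusted p under 0.05), against 281 genes and 2 members without the block. The cause of these shifts was not tested beyond that.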
